A study of Sus scrofa with 2 samples.

Results

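Collagens are the main proteins of the extracellular matrix, and the 8 collagen chain genes described here were taken from the transcriptome of the longissimus dorsi muscle (LM) of Shaziling and Yorkshire pigs. A gene was included when an assembled transcript (unigene) carried, as its best match in the NCBI nr protein database, a RefSeq protein of the pig gene. By this rule 13 of the 65535 listed unigenes belonged to the 8 genes, among 5698 unigenes that received 1 of 4484 pig gene symbols, and the unigene with the highest mean RPKM (reads scaled by unigene length and library total) represented its gene. Of the 8, 5 code for fibrillar chains (COL1A2, COL3A1, COL5A1, COL5A2 and COL11A1) and 3 for chains of other classes (COL7A1, COL8A1 and COL19A1). No other gene with a collagen chain symbol was found by the same rule, and COL1A1, the partner chain of COL1A2, was not analysed here. Collagen chains without such a match, COL4A1 and COL6A2 among them, were not analysed either. The study's own list of differently expressed genes names both COL4A1 and COL6A2. The 8 genes are therefore not a full list of the collagens expressed in this muscle.

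The LM of 3 male full-sib Shaziling pigs and of 3 male full-sib Yorkshire pigs, all slaughtered at 25 days of age, was compared. Shaziling is an indigenous, fat-type breed of China, and Yorkshire is a lean breed with fast growth. Only 1 library per breed is represented in the table, under a column name that lists 3 codes. It was not stated whether RNA was pooled or reads were merged. There is thus no replicate error and no test between breeds, intervals on reads cover counting error only, and breed and litter cannot be told apart. The breeds follow the sample titles and column names, whereas another descriptive field has the classes exchanged, calling Yorkshire indigenous and Shaziling lean.

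A collagen molecule consists of 3 chains wound into a triple helix, built from repeats that each hold a glycine. Fibrillar collagens of types I, III, V and XI assemble into the fibrils that give the connective tissue around muscle fibers its tensile strength, and in muscle they are made mainly by fibroblasts. Before secretion the chains are hydroxylated, folded and glycosylated, and outside the cell they are trimmed and cross-linked. Intramuscular collagen and its cross-links are known for their influence on the tenderness of meat.

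The libraries held 33949238 (Yorkshire) and 28305925 (Shaziling) reads by the totals behind the RPKM values, of which the table lists 87.0% and 72.7%, and unigenes outside it were not analysed here. Unigenes of mitochondrial genes, 2 in number, took 46.4% of all Yorkshire reads and 11.8% of those of Shaziling, which lowers the RPKM of all other unigenes in Yorkshire. Over the 4484 genes the log2 ratio (Shaziling over Yorkshire) had a median of 0.68 with the RPKM values as deposited, and of -0.04 when these 2 unigenes were left out of both totals. The ratios below are therefore given beside this median. Over the 640 genes at 10 RPKM or above in each library, the median was 0.34 as deposited and -0.38 with these 2 unigenes left out. The tissue label was checked with fast fiber genes, of which 5 of 8 listed were found. The myosin heavy chain gene MYH4 reached 2748 RPKM in the Yorkshire and 6978 in the Shaziling library.

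The fibrillar chains were mostly abundant in both libraries and differed by less than a fold of 2 between them, while the other chains had few reads. None of the 5 fibrillar genes reached a fold change of 2, and their ratios of Shaziling to Yorkshire lay between 0.893 and 1.81. Of the 8 genes, COL7A1 alone was called different, with a higher RPKM in Shaziling. A gene was called when its RPKM differed by a fold of 2 or more and its reads passed a false discovery rate of 0.05 in an exact binomial test, which compares the 2 libraries and not the breeds. Called higher in Shaziling were 1 of the 8 genes (12.5%) and 35.3% of the 4484 genes. Called higher in Yorkshire were 0 of the 8 genes and 3.17% of the 4484 genes, and in either direction 38.5% of these were called. The median log2 ratio of the 8 genes was 0.14, against 0.68 for all genes, and it was below 0 under each of the 4 other scalings described below. Among the 640 genes at 10 RPKM or above in each library, 20.6% were called higher in Shaziling and 1.72% in Yorkshire, and 0 of the 4 collagen genes at that level were called. The median log2 ratio of these 640 genes was 0.34 as deposited and -0.38 with totals that leave out the mitochondrial unigenes.

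**Figure D1:**
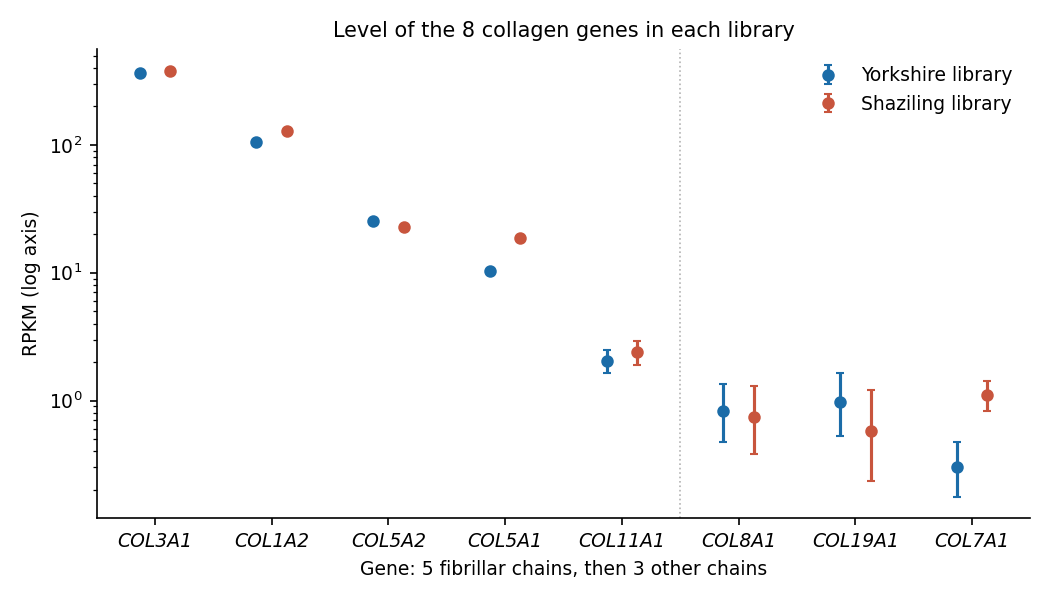
RPKM (log axis) of the 8 collagen genes in the Yorkshire and the Shaziling library, 1 library per breed; bars are exact 95% Poisson intervals on the reads. The fibrillar chains on the left span from 378 (COL3A1, Shaziling) down to 2.03 (COL11A1, Yorkshire), and the 3 other chains lie near or below 1.

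COL3A1 codes for the chain of type III collagen, a homotrimer found in the fine fibrils of the perimysium and endomysium. It was represented by contig_185, whose 5453 bp exceed the 4401 bp needed to code for the matched protein of 1466 residues. The Yorkshire library had 67352 reads (RPKM 364, 95% interval 361 to 367). The Shaziling library had 58391 reads (RPKM 378, 95% interval 375 to 381). COL3A1 was the most abundant of the 8 genes in both libraries, above 99.7% of the 4484 genes in Yorkshire and above 99.4% in Shaziling. Its ratio was 1.04 (95% interval 1.03 to 1.05), so the levels as deposited were nearly equal although the interval leaves out 1. Under the 4 other scalings described below its log2 ratio was -0.66 to -0.30, lower in Shaziling.

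COL1A2 codes for the alpha 2 chain of type I collagen, the main collagen of tendon, bone and the coarse fibers of muscle connective tissue. Contig_73 (5154 bp, against 4101 bp of coding sequence) had 18289 reads (RPKM 104.5) in Yorkshire. In Shaziling it had 18861 reads (RPKM 129.) The ratio was 1.24 (95% interval 1.21 to 1.26), below the median of all genes, and 36.1% of the 4484 genes had a lower ratio. Its log2 ratio of 0.31 lay close to the median of 0.34 over the 640 genes at 10 RPKM or above in each library. COL3A1 and COL1A2 together held 90.6% of the reads of the 8 representative unigenes in Yorkshire and 89.7% in Shaziling.

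Type V collagen is a minor component that sets the diameter of type I fibrils, and its common form joins alpha 1 and alpha 2 chains. COL5A1 (contig_1046, 8323 bp) had 2892 reads (RPKM 10.2) in Yorkshire. It had 4367 reads (RPKM 18.5) in Shaziling. Its ratio of 1.81 (95% interval 1.73 to 1.90) was the largest among the fibrillar genes and remained under a fold of 2. COL5A2 (contig_1978, 6705 bp) had 5811 reads (RPKM 25.5) in Yorkshire. In Shaziling it had 4328 reads (RPKM 22.8), for a ratio of 0.893 (95% interval 0.859 to 0.929). As deposited, COL5A2 was the only fibrillar gene with a lower RPKM in Shaziling, while COL3A1, COL1A2 and COL11A1 were also lower there under each of the 4 other scalings. The partner chains of type V collagen differed in direction under each scaling tried.

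COL11A1 codes for the alpha 1 chain of type XI collagen, which nucleates fibrils in cartilage and can replace a chain of type V collagen in other tissues. It was represented by a partial transcript, First_Contig2200 (1309 bp, 27.4% of the coding length), with 90 reads in Yorkshire and 88 in Shaziling. The RPKM was 2.03 and 2.38, and the ratio was 1.17 (95% interval 0.864 to 1.59). A difference between the libraries was not detectable at this depth.

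Ratios between chains within a library do not depend on the library totals and so are free of the mitochondrial reads. COL5A2 was 2.49 times as abundant as COL5A1 in Yorkshire and 1.23 times in Shaziling. The quotient of these ratios was 0.493, with a 95% Wald interval of 0.464 to 0.524 that covers counting error only. The surplus of the alpha 2 over the alpha 1 transcript of type V collagen was thus smaller in the Shaziling library. An effect of base composition on ratios between chains was not tested, since no unigene sequences were available. COL3A1 exceeded COL1A2 by 3.48 times in Yorkshire and by 2.93 times in Shaziling, a quotient of 0.841 (95% interval 0.821 to 0.860). COL3A1 exceeded COL5A1 by 35.5 times in Yorkshire and by 20.4 times in Shaziling (quotient 0.574, 95% interval 0.547 to 0.603). COL1A2 exceeded COL5A2 by 4.09 times in Yorkshire and by 5.67 times in Shaziling (quotient 1.38, 95% interval 1.32 to 1.45). Relative to each of the 4 other fibrillar chains, COL5A1 was therefore more abundant in the Shaziling library. COL5A2 was less abundant there relative to COL3A1, COL1A2 and COL5A1, but for COL5A2 against COL11A1 the quotient of 0.762 had an interval (0.566 to 1.02) that included 1. For COL3A1 against COL11A1 the interval (0.661 to 1.19) also included 1.

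**Figure D2:**
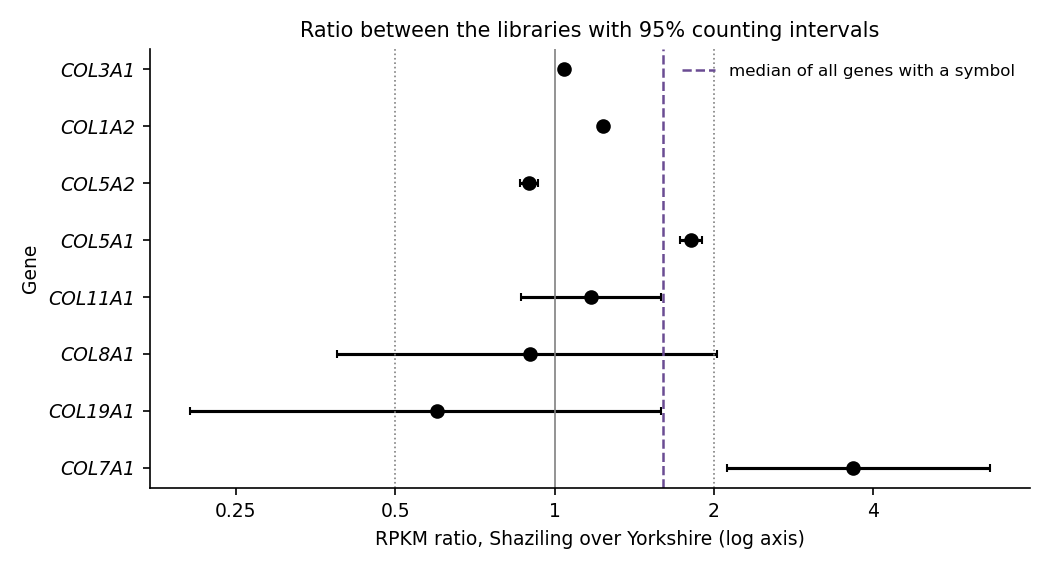
RPKM ratio of the Shaziling to the Yorkshire library (log axis) for each collagen gene, with exact 95% intervals on the reads; dotted lines mark a fold of 2 in each direction and the dashed line the median of 4484 genes. COL7A1 alone lies beyond a fold of 2, and of the fibrillar genes COL5A1 (1.81) alone lies to the right of the median; the ratios of COL3A1, COL1A2 and COL11A1 fall below 1 under each of the 4 other scalings.

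Among the other chains, COL7A1 codes for the chain of the anchoring fibrils that fasten the epidermal basement membrane to the dermis. Its representative unigene, contig_30975 (1772 bp, 20.1% of the coding length), had 18 reads (RPKM 0.299) in Yorkshire. It had 55 reads (RPKM 1.10) in Shaziling, and the ratio was 3.66 (95% interval 2.12 to 6.63). The call was made with the RPKM as deposited and under each of the 4 other scalings of the libraries described below, with which 17.2% to 25.1% of the 4484 genes were called higher in Shaziling, but not with a pseudocount of 1, on which scale the log2 difference was 0.69. Further fragments of the same protein were contig_71928 (331 bp, 2 reads in Yorkshire and 6 in Shaziling) and contig_72932 (234 bp, 2 and 5 reads). All 3 fragments had the higher RPKM in Shaziling, and their summed reads, 22 and 66, gave a ratio of 3.60 (95% interval 2.19 to 6.12).

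COL8A1 codes for the alpha 1 chain of type VIII collagen, a short-chain collagen of the vessel wall and of the membrane under the corneal endothelium. Contig_37948 (571 bp, 25.5% of the coding length) had 16 reads in Yorkshire and 12 in Shaziling. The RPKM was 0.825 and 0.742, and the ratio was 0.900 with a 95% interval of 0.388 to 2.03. The interval holds equal levels as well as a fold of 2 in either direction.

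COL19A1 codes for the chain of type XIX collagen, a rare collagen with interrupted triple helices that belongs to the fibril-associated class and is found near basement membranes. It was split into 4 fragments, whose directions differed. The representative, contig_42182 (425 bp), had 14 reads (RPKM 0.970) in Yorkshire. It had 7 reads (RPKM 0.582) in Shaziling, and its ratio of 0.600 had an interval of 0.205 to 1.59. The longest fragment, contig_50587 (540 bp), had 1 read in Yorkshire and 20 in Shaziling (ratio 24.0, 95% interval 3.84 to 994) and was called, as were 24.1% of all listed unigenes in this direction. Contig_75928 (276 bp) had 0 reads in Yorkshire and 9 in Shaziling, at least 3.60-fold higher when 3 reads are taken as the limit for the Yorkshire library. Contig_62536 (295 bp) had 2 and 5 reads. With the reads of the 4 fragments summed (17 and 41), the ratio was 2.89 (95% interval 1.61 to 5.43). COL19A1 was thus lower in Shaziling by its representative unigene, without being called, and called higher in Shaziling by its longest unigene or by the sum.

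**Figure D3:**
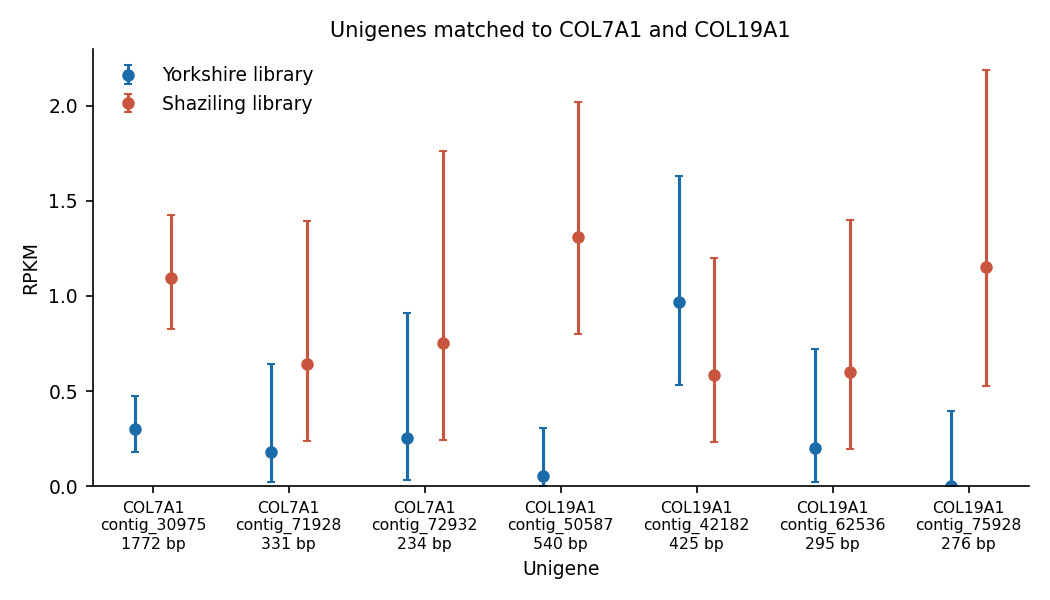
RPKM of each unigene matched to COL7A1 and COL19A1 in both libraries, with exact 95% Poisson intervals on the reads; unigene names and lengths are given under the points. The 3 fragments of COL7A1 are higher in the Shaziling library, and of the 4 fragments of COL19A1, contig_42182 is the 1 with the higher RPKM in Yorkshire (0.970 against 0.582).

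The order of the levels was the same in both libraries for the fibrillar chains: COL3A1, COL1A2, COL5A2, COL5A1 and COL11A1. The intervals of neighbours in this order did not overlap in either library. Below them, COL19A1, COL8A1 and COL7A1 followed in Yorkshire, and COL7A1, COL8A1 and COL19A1 in Shaziling. The intervals of neighbours among these 3 overlapped in both libraries, so the order of neighbours is not resolved. In Yorkshire the intervals of COL19A1 (0.530 to 1.63) and COL7A1 (0.177 to 0.473) did not overlap. By the representative unigenes, an RPKM of 1 in 1 or both libraries was reached by 6 of the 8 genes, and by neither COL8A1 nor COL19A1. Other unigenes of COL19A1, contig_50587 and contig_75928, reached 1.31 and 1.15 RPKM in Shaziling.

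The fibrillar and the other chains were compared as classes. The 5 fibrillar genes had a median log2 ratio of 0.23 and the 3 others of -0.15, a difference of 0.38. The classes also differed in depth, since a fibrillar gene had 178 to 125743 reads over both libraries and an other gene 21 to 73. The difference between the medians changed sign with the unigene that stands for a gene, to -1.30 with the summed reads and to -1.64 with the longest unigene, because COL19A1 then had the higher value in Shaziling. The classes are therefore not distinguished in their ratio between the libraries. Their levels by the representative unigenes did not overlap. The lowest RPKM of a fibrillar gene was 2.03 in Yorkshire and 2.38 in Shaziling, against a highest value of 0.970 and 1.10 among the others. The gap was narrow at COL11A1, whose Yorkshire interval began at 1.629, while that of COL19A1 ended at 1.628. Another unigene of COL19A1, contig_50587, had an RPKM of 1.31 in Shaziling.

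The direction of several chains depended on the scaling of the libraries. The 8 representative unigenes received 0.278% of the Yorkshire and 0.304% of the Shaziling library total. Of the reads left without the 2 mitochondrial unigenes, they received 0.519% and 0.345%. COL3A1, COL1A2 and COL11A1 had log2 ratios of 0.06, 0.31 and 0.23 as deposited, which were -0.66, -0.41 and -0.49 with totals that leave out the mitochondrial unigenes. Their ratios also lay below 1 when both libraries were given an equal RPKM sum, when the median over unigenes at 10 RPKM or above was set to 0 and with TMM (trimmed mean of M-values). Under these 3 scalings 23.2%, 25.1% and 23.1% of the 4484 genes were called higher in Shaziling, and 8.01%, 6.94% and 8.1% in Yorkshire. COL5A1 and COL7A1 were higher in Shaziling under every scaling tried, with log2 ratios from 0.14 to 0.86 and from 1.16 to 1.87. The log2 ratios of COL5A2, COL8A1 and the representative of COL19A1 were below 0 under every scaling. They ran from -0.88 to -0.16, from -0.87 to -0.15 and from -1.46 to -0.74, in the same order. As deposited, however, COL8A1 (16 and 12 reads) had a log2 interval of -1.36 to 1.02. That of COL19A1 (14 and 7 reads) was -2.29 to 0.67. Both intervals included 0, so the direction of these genes was not resolved as deposited. Relative to the median of all genes, which any scaling leaves unchanged, COL3A1 lay lower by a log2 difference of -0.62, COL1A2 by -0.37 and COL5A2 by -0.84, whereas COL5A1 lay higher by 0.18. The 640 genes at 10 RPKM or above in each library, which include these chains, had a lower median of 0.34 as deposited. With totals that leave out the mitochondrial unigenes, their median was -0.38, and COL1A2 (-0.41) lay close to it. As deposited, COL1A2 (0.31) lay close to the median of 0.34, COL5A1 (0.86) well above it, and COL3A1 (0.06) and COL5A2 (-0.16) below it.

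**Figure D4:**
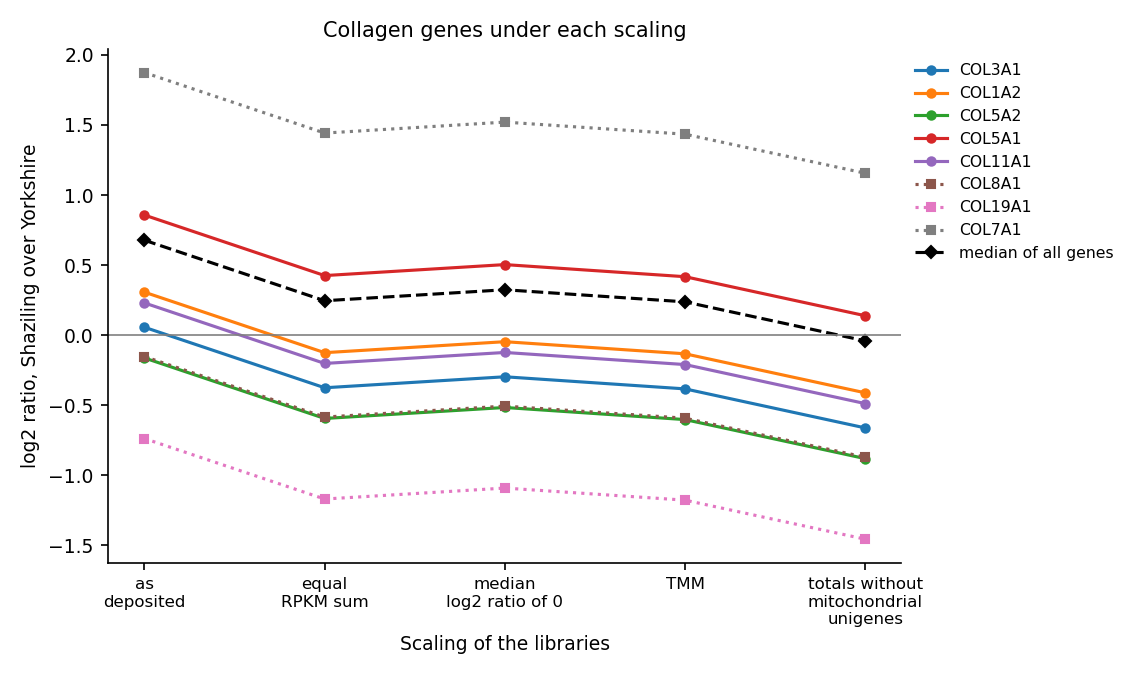
Log2 ratio of Shaziling to Yorkshire for the 8 collagen genes under the RPKM values as deposited and 4 other scalings, with the median of 4484 genes as black diamonds; lines join the values of a gene, circles are fibrillar and squares other chains. COL3A1, COL1A2 and COL11A1 are above 0 as deposited and below 0 under the other scalings, while COL5A1 and COL7A1 are above 0 throughout.

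The genes that act on collagen were described from 5 lists, through the same symbols. In bulk muscle, fewer cells of a type and less RNA per cell cannot be told apart. Of 26 listed symbols for collagen synthesis and folding, 7 were found, and 6 of them were called higher in Shaziling (35.3% of all genes were). Their median log2 ratio was 1.86. PLOD1, a lysyl hydroxylase whose products take part in cross-links, went from 2.92 RPKM in Yorkshire to 12.7 in Shaziling (ratio 4.35, 95% interval 3.83 to 4.96). P3H3, of the prolyl 3-hydroxylase family, had 6 and 36 reads and a ratio of 7.20 (95% interval 3.003 to 20.9). COLGALT1, which adds galactose to hydroxylysine, had a ratio of 2.57 (95% interval 2.16 to 3.07). P4HA1, a catalytic subunit of prolyl 4-hydroxylase, was the exception, with a ratio of 1.45 (95% interval 1.35 to 1.55), and it had a log2 ratio of -0.19 with totals that leave out the mitochondrial unigenes. With those totals, 4 of the 7 genes were still called higher in Shaziling, where 17.2% of all genes were (and 14.9% higher in Yorkshire).

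Of the 17 symbols for procollagen processing and cross-linking, 8 were found, 3 were called higher in Shaziling and 0 in Yorkshire (35.3% and 3.17% of all genes), with a median log2 ratio of 0.71. Under each of the 4 other scalings 1 of the 8 was called in each direction. Of all genes, 17.2% to 25.1% were then called higher in Shaziling and 6.94% to 14.9% in Yorkshire. LOX, the lysyl oxidase that starts the cross-linking of collagen, had 1595 reads (RPKM 9.09) in Yorkshire. It had 689 reads (RPKM 4.71) in Shaziling. Its ratio of Yorkshire to Shaziling was 1.93 (95% interval 1.76 to 2.11), just under the fold of 2, and only 4.82% of the 4484 genes had a lower ratio of Shaziling to Yorkshire. It was called higher in Yorkshire under each of the 4 other scalings. TGM2, a transglutaminase that cross-links matrix proteins, was called higher in Shaziling with a ratio of 3.66 (95% interval 3.09 to 4.34). PCOLCE, which enhances the removal of the C-propeptide, was called at 10.9 and 26.9 RPKM, with Shaziling 2.48 times as high (95% interval 2.17 to 2.83), and was not called under the other scalings. LOXL4, a relative of LOX, had 19 and 15 reads and a ratio of 0.947 (95% interval 0.448 to 1.97).

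Of the 30 symbols for fibril-associated proteoglycans and glycoproteins, 16 were found. Of these, 4 were called higher in Shaziling (35.3% of all genes were), 3 in Yorkshire (3.17% of all genes) and 9 in neither direction, and the median log2 ratio was -0.32, below that of all genes. The 3 genes called higher in Yorkshire were MFAP2, OMD and KERA, of which KERA, like FBLN5 below, was named after its value was seen. MFAP2, a microfibril component, had 284 and 84 reads, with a ratio of Yorkshire to Shaziling of 2.82 (95% interval 2.20 to 3.64). OMD (osteomodulin) and KERA (keratocan) are small leucine-rich proteoglycans, which bind collagen fibrils, and their ratios of Yorkshire to Shaziling were 2.69 and 2.32. THBS1 (thrombospondin 1) and TNXB (tenascin X), matrix glycoproteins, were called higher in Shaziling, with ratios of 4.40 (95% interval 4.03 to 4.81) and 3.95 (95% interval 3.41 to 4.57). FBLN1 and FBLN5, of the fibulin family, were also called higher in Shaziling, with ratios of 2.51 and 2.20. With totals that leave out the mitochondrial unigenes, 2 of the 16 genes were called higher in Shaziling and 9 in Yorkshire, against 17.2% and 14.9% of all genes.

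Of 13 symbols for collagen receptors, 3 were found. ADGRG1, an adhesion receptor that binds type III collagen, was called higher in Shaziling at 1.69 and 5.82 RPKM (ratio 3.45, 95% interval 2.94 to 4.06). ITGA2, the alpha subunit of a collagen-binding integrin, had 30 and 28 reads and a ratio of 1.12 (95% interval 0.644 to 1.94), and its ratio lay below 1 under each of the 4 other scalings. MRC1, the macrophage mannose receptor, had 32 and 21 reads and a ratio of 0.787 (95% interval 0.431 to 1.41). Of 23 symbols for collagen breakdown, 5 were found, and 4 were called higher in Shaziling, where 35.3% of all genes were. These were the matrix metalloproteinase MMP11 (ratio 6.49, 95% interval 5.17 to 8.22), the tissue inhibitor TIMP2 (2.81), the lysosomal protease CTSB (2.09) and MMP2, a gelatinase (2.07). MMP19, of the same family as MMP2, had a ratio of 1.75 and was not called. All 5 kept a log2 ratio above 0 under each scaling, but with totals that leave out the mitochondrial unigenes only MMP11 was called, where 17.2% of all genes were called higher in Shaziling.

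**Figure D5:**
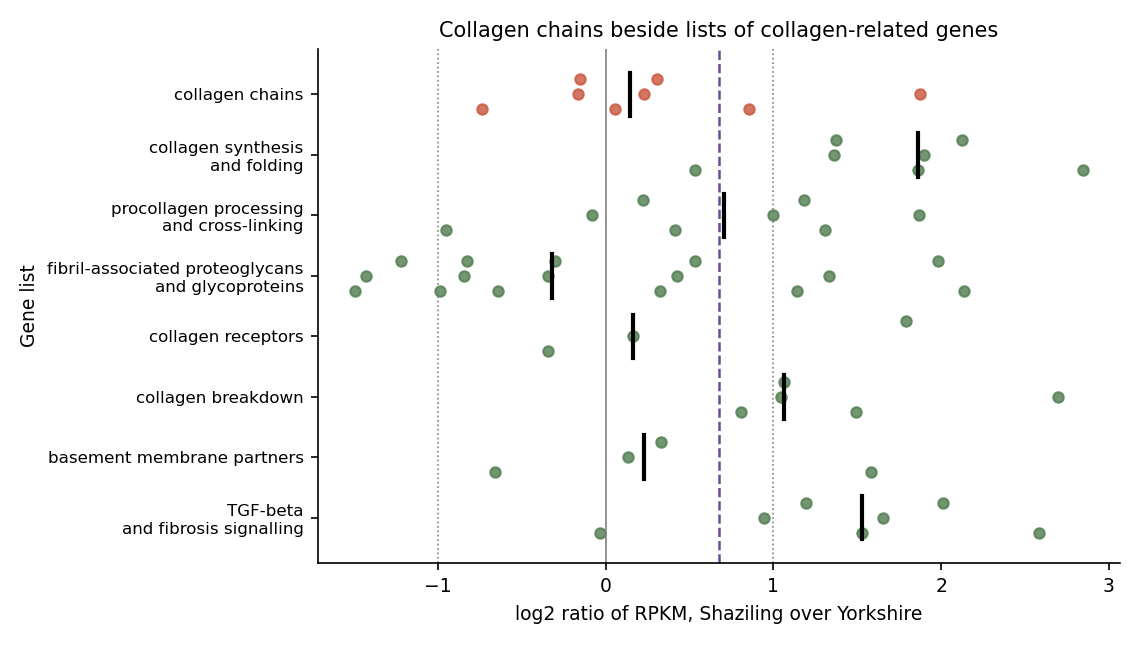
Log2 ratio of RPKM, Shaziling over Yorkshire, of the 8 collagen genes and of the genes found in 7 lists of related genes, each point a gene, with list medians as black bars; dotted lines mark a fold of 2 and the dashed line the median of 4484 genes. The collagen chains have a median of 0.14 and the genes of collagen synthesis and folding of 1.86 as deposited, and under totals without the mitochondrial unigenes these medians are -0.58 and 1.14.

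Fibroblast markers were measured beside the collagen chains. Of 7 listed, 4 were found, and their summed RPKM was 272 in Yorkshire and 200.3 in Shaziling. DCN (decorin) had a ratio of 0.813 (95% interval 0.786 to 0.841), LUM (lumican) of 0.505 (95% interval 0.482 to 0.528) and THY1 of 0.982 (95% interval 0.859 to 1.12). As deposited, FBLN1 (2.51) alone was called, higher in Shaziling, as were 35.3% of all genes. Under each of the 4 other scalings FBLN1 was not called and LUM was called higher in Yorkshire. With totals that leave out the mitochondrial unigenes DCN was called higher in Yorkshire too. Under these 4 scalings 17.2% to 25.1% of all genes were called higher in Shaziling and 6.94% to 14.9% in Yorkshire. DCN, LUM and FBLN1 stand also in the list of fibril-associated genes. Summed RPKM of the fast fiber genes was 5615 in Yorkshire and 13667 in Shaziling. The part of cell composition in the ratios of the collagen chains was not tested.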

How the data were processed

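RNA of the LM was sequenced by the authors as paired-end reads of TruSeq libraries and assembled de novo with CLC Genomics Workbench and CAP3, and unigenes were matched to nr with BlastX. The submitters' processing notes also list CASAVA 1.8, TopHat2 2.0.6 and the mouse build mm10, whose use in this table is unclear, so no coordinates are given. The deposited counts are whole reads per unigene (counting program not given in the sources used here), while for the deposited RPKM the authors ran Qualimap. Dividing counts by RPKM gave the same total for all unigenes of a library. All columns of sample values were used (0 left out). The column names lack a separator, so columns follow the order of the names.

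RefSeq protein accessions were matched without their version to pig genes of Sscrofa11.1 (4530 of 5698 unigenes had the same version). No collagen sequences are printed. Ratios are of RPKM, with exact (Clopper-Pearson) 95% intervals on the reads, and 3 reads replaced a count of 0. Calls required a fold of 2 and a false discovery rate of 0.05 (two-sided exact binomial test, Benjamini-Hochberg over 65535 unigenes). In libraries simulated for this comparison over 65535 unigenes, 99 of 100 unigenes changed by a fold of 3 and 100 of 100 changed by a fold of 6 were recovered. The changed unigenes were drawn from those with 100 or more expected reads over both libraries, and only counting error was simulated. The recovery therefore does not cover COL7A1, COL8A1 and COL19A1, which had 21 to 73 reads, or other genes with few reads. No paired analysis was possible because each breed has 1 library. The members and lists were chosen with earlier results of these data known. From each list were named the 2 highest and 2 lowest ratios among genes with 20 reads or more, and in lists with 6 genes found or fewer, each gene. Genes of similar pattern were not sought, since 2 libraries give a single difference per gene. The 2 mitochondrial unigenes (contig_3 and contig_45) were identified by their names in the paper's supplement. Alternatives were 4 scalings, the unigene per gene, pseudocounts of 1 and 0.1, thresholds and filters on RPKM; every unigene of a gene and the subset at 10 RPKM or above were added after the data were seen. TMM factors came from edgeR 4.0.16 in R 4.3.3, and all else from scipy 1.17.1 and pandas 2.3.3 in Python 3.11.15. The result of 1 of the marker lists is not reported here.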

Additional observations from a re-analysis of the deposited data

How the results depend on the processing

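Without replicates no library could be left out. The call of COL7A1 was kept under each scaling and lost on the log2(RPKM + 1) scale, and no fibrillar gene was called under any scaling. The log2 ratios of COL3A1, COL1A2 and COL11A1 turned to -0.38, -0.13 and -0.20 with the same RPKM sum, to -0.30, -0.047 and -0.12 with a median of 0, to -0.38, -0.13 and -0.21 with TMM, and to -0.66, -0.41 and -0.49 with totals that leave out the mitochondrial unigenes. The median of the 8 genes turned from 0.14 to -0.29, -0.21, -0.30 and -0.58 in the same order. COL19A1 turned to 4.58 with its longest unigene and to 1.53 with summed reads, and the median of fibrillar minus other chains became -1.64 and -1.30. The number of collagen genes called higher in Shaziling was 2 of the 8 with the longest unigene, with summed reads and with a fold of 1.5 (COL5A1 joins there). With these settings 1627, 1658 and 2091 of the 4484 genes were called higher in Shaziling, in the same order. Among all 4484 genes, 1585 were called higher in Shaziling and 142 in Yorkshire. These counts were 1039 and 359 with the same RPKM sum, 1034 and 363 with TMM, and 771 and 669 without the mitochondrial unigenes. With a median of 0, 311 were higher in Yorkshire. A fold of 1.5 gave 306 higher in Yorkshire, a fold of 3 gave 977 and 49, and genes at 10 RPKM or above in each library gave 132 and 11. Depth limits COL8A1, with 28 reads over both libraries, and the fragments of COL19A1, with 7 to 21.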

Other observations

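Basement membrane partners, of which 4 of 18 symbols were found, included 0 called genes as deposited, against 38.5% of all genes called in either direction. Under each of the 4 other scalings SPARCL1 was called higher in Yorkshire, as were 6.94% to 14.9% of all genes. With the longest or the summed unigenes LAMA3 was called higher in Shaziling, as were 1627 and 1658 of the 4484 genes. The laminin genes LAMB1 and LAMC1, whose products join the scaffold beneath muscle fibers, had ratios of Shaziling to Yorkshire of 1.10 (95% interval 1.05 to 1.15) and 1.26 (95% interval 1.22 to 1.29), which lay below 1 under each of the 4 other scalings. LAMA3 had 2 and 5 reads. SPARCL1, a matricellular glycoprotein, stood at 200.5 RPKM in Yorkshire against 127 in Shaziling (ratio 0.633, 95% interval 0.617 to 0.649). Of the 24 symbols for TGF-beta and fibrosis signalling, 7 were found and 5 were called higher in Shaziling (35.3% of all genes were). With totals that leave out the mitochondrial unigenes 1 of the 7 was called, against 17.2% of all genes. TGFB1, a cytokine that stimulates matrix synthesis, had 33 and 111 reads and a ratio of 4.03 (95% interval 2.71 to 6.15). CYR61, a matricellular protein, had a ratio of 3.15 (95% interval 2.47 to 4.04), while SMAD4, the shared mediator of this pathway, had a ratio of 0.977 (95% interval 0.909 to 1.05) and TGFBR3 of 1.93.

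Among markers of other cells, the blood genes HBB and ALAS2 had ratios of 11.2 and 10.6, and the endothelial genes VWF, KDR and PECAM1 had ratios of 20.2, 1.53 and 1.36. KDR and PECAM1 turned below 1 with totals that leave out the mitochondrial unigenes. The adipocyte genes FABP4 and CIDEC had ratios of 1.86 and 4.20, and the pericyte gene RGS5 of 0.834. Of the fast fiber genes, MYH4, MYH1, ATP2A1, PVALB and MYLPF had ratios of 2.54, 1.57, 2.50, 4.13 and 5.75, and that of MYH1 lay below 1 with totals that leave out the mitochondrial unigenes. The slow fiber gene MYL3 had a ratio of 4.29. Markers of tendon and cartilage and of immune cells received no unigene by the matching rule and were not analysed here. How far these cells bear on the collagen values was not tested.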
